A study of Mus musculus with 16 samples.

Results

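The sensors of unfolded proteins and the membrane-bound CREB3 transcription factors were followed in mouse hepatic progenitor cells with and without Ptpn1. They are encoded by 9 genes, taken by symbol from the 55421 genes of the deposited table: Ern1, Xbp1, Atf6, Atf6b, Eif2ak3, Creb3, Creb3l1, Creb3l2 and Creb3l3. Each symbol had 1 entry, and all 9 passed the filter on low values, Creb3l3 through its KO libraries. The 16 libraries form 4 groups of 4: Ptpn1-/- (KO) cells given 400 µM palmitic acid for 8 h, KO control cells, Ptpn1+/+ (WT) cells given the same palmitic acid, and WT control cells. Palmitic acid is a saturated fatty acid, given here in serum-containing DMEM with albumin added. Whether the control cells had the same medium is not in the labels. Nor is the number of cell lines behind a genotype, or whether the 4 libraries of a group came from separate cultures. Genotype and cell line therefore cannot be told apart, and p-values measure only the spread between these libraries.

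When unfolded proteins gather in the endoplasmic reticulum (ER), they are sensed by the membrane proteins IRE1, PERK and ATF6. IRE1 cuts the Xbp1 transcript so that it codes for an active transcription factor, PERK slows translation by phosphorylating eIF2 and so favours ATF4, and ATF6 travels to the Golgi, where site proteases free its transcription factor part. The CREB3 family is built and cleaved like ATF6; its member CREB-H is best known in hepatocytes, and OASIS in collagen-secreting cells. PTP1B, the product of Ptpn1, is a tyrosine phosphatase anchored in the ER membrane.

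Ptpn1 was checked first. It averaged 293 ± 11.6 normalized counts in KO palmitate libraries and 329.5 ± 16.04 in KO control libraries, against 1852 ± 16.7 in WT palmitate and 1937 ± 39.0 in WT control libraries (SD, n = 4 each). KO cells thus kept 15.8% of the WT level after palmitate and 17.02% in control, and the gene-level value cannot show which part of the transcript remained. The libraries held 21553952 to 35693442 gene reads. Genotype differences were broad. The summed level of 9 hepatocyte markers was 52958 to 57201 in KO palmitate and 46135 to 49348 in KO control libraries, against 1601 to 1780.2 in WT palmitate and 1299.6 to 1394 in WT control libraries. Stellate and fibroblast markers went the other way, at 1987 to 2161 in KO palmitate and 1995 to 2734 in KO control libraries, against 95038 to 98952 in WT palmitate and 110144 to 117539 in WT control libraries. Over 8 progenitor and cholangiocyte markers the summed level was 225582 to 257719 in KO palmitate and 234301 to 240405 in KO control libraries, against 107904 to 116181 in WT palmitate and 107903 to 117715 in WT control libraries. Among them Krt7, Krt19, Sox9, Spp1, Cd24a and Cdh1 were present in all groups. Spp1 made up most of each sum, averaging 192214 in KO palmitate and 184089 in KO control cells. In WT cells it averaged 85761 after palmitate and 84275 in control. After palmitate, Cd24a (13416 in KO, 13266 in WT cells) and Krt7 (6128 and 5669) lay close between genotypes. Krt19 (5341 and 3457), Sox9 (2168 and 503) and Cdh1 (17968 and 2180) did not. Krt7 was still called higher in KO cells after palmitate, at a log2 fold change of 0.11 (limma adjusted p = 6.91e-04). In control both were called higher in KO cells, Krt7 at 8174 against 6465 (limma adjusted p = 8.56e-12) and Cd24a at 18245 against 16124 (limma adjusted p = 9.59e-07). Prom1 averaged 0.81 in KO palmitate and 0 in KO control cells, against 22.4 in WT palmitate and 19.1 in WT control cells, and Epcam was at most 4.35 normalized counts in KO libraries and 0 in every WT library. Among the other defining markers, Lrat (stellate cells) and Adgre1 (macrophages) were at 0 in every library. Apob alone made up most of the hepatocyte sum in KO cells, averaging 30329 after palmitate and 26706 in control. Unlike that sum, Tat did not differ between KO and WT cells, at -0.126 after palmitate and 0.023 in control (limma adjusted p = 0.479 and 0.899). Cps1 and Cyp2e1 averaged at most 2.13 in any group. In these bulk libraries, fewer cells of a type and less RNA per cell cannot be told apart. Ribosomal RNA was 0.101% to 0.107% of gene reads in KO palmitate and 0.0812% to 0.0863% in KO control libraries, against 0.058% to 0.0624% in WT palmitate and 0.0525% to 0.0543% in WT control libraries. Mitochondrial messenger RNA was 3.93% to 4.22% in KO palmitate and 3.39% to 3.72% in KO control libraries, against 3.565% to 3.798% in WT palmitate and 3.435% to 3.554% in WT control libraries. Both shares were higher after palmitate in each genotype without overlap, and their part in the results was not tested. KO palmitate library 1 stood apart from its group, with a chi-square per degree of freedom of 5.21 to 5.79 against its partners, which had 2.24 to 2.89 among themselves. Without it 0 of the 45 calls for the 9 genes changed, the largest shift of a log2 fold change was 0.086 (Creb3l3, KO against WT after palmitate), and 1784 genes had differing responses, beside 1508 with it.

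Ern1, Xbp1, Atf6 and Creb3l2 were higher in KO than in WT cells and higher after palmitate in both genotypes. Atf6b was lower in each of these comparisons, Creb3l1 was far lower in KO cells, and Creb3l3 was higher in KO cells and rose further there after palmitate. Fold changes here are limma estimates on log2(normalized count + 1), and a gene was called at a Benjamini-Hochberg adjusted p under 0.05 (two-sided) over 15239 genes. Against WT, KO cells had 9 of the 9 genes called after palmitate (7 higher, 2 lower) and 8 of 9 in control (6 higher, 2 lower). The background was high, since 77.1% of all genes tested were called in each of these comparisons, so these counts are close to it. Creb3l3, counted as higher in both, passed the filter through the KO libraries alone, so its direction follows from the filter. It adds no support to these counts or to the genotype medians below. Palmitate called 6 of 9 in KO cells (5 higher, 1 lower) where 39.1% of all genes were called, and 8 of 9 in WT cells (5 higher, 3 lower) where 37.6% of all genes were called. The palmitate response itself differed between genotypes for 3 of 9 genes, Xbp1, Creb3l3 and Eif2ak3, against 9.90% of all genes. Of these, 2 had a larger response in KO cells, against 4.19% of all genes, and 1 a smaller one, against 5.71%. Larger and smaller refer to the signed difference, KO minus WT. Creb3l3 had only 28 reads over the WT palmitate and 26 over the WT control libraries. The calls of Xbp1 and Eif2ak3 were lost under 9 and 8 of the 24 alternatives. No excess over the background is therefore read from this count. The median log2 fold change of the 9 genes was 0.45 for KO against WT after palmitate and 0.46 in control, against -0.011 and -0.008 over all genes tested. It was 0.31 for palmitate in KO cells and 0.10 in WT cells, against 0.0001 and 0.007 over all genes. Scaling the libraries to the same total moved the all-gene median for KO against WT after palmitate to -0.11, and gave 3656 genes higher and 2265 lower after palmitate in WT cells, beside 2702 and 3032 as deposited. It gave 489 genes with a larger and 1141 with a smaller response in KO cells, beside 638 and 870 as deposited. The 4 comparisons share libraries, so they are not independent of each other.

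**Figure D1:**
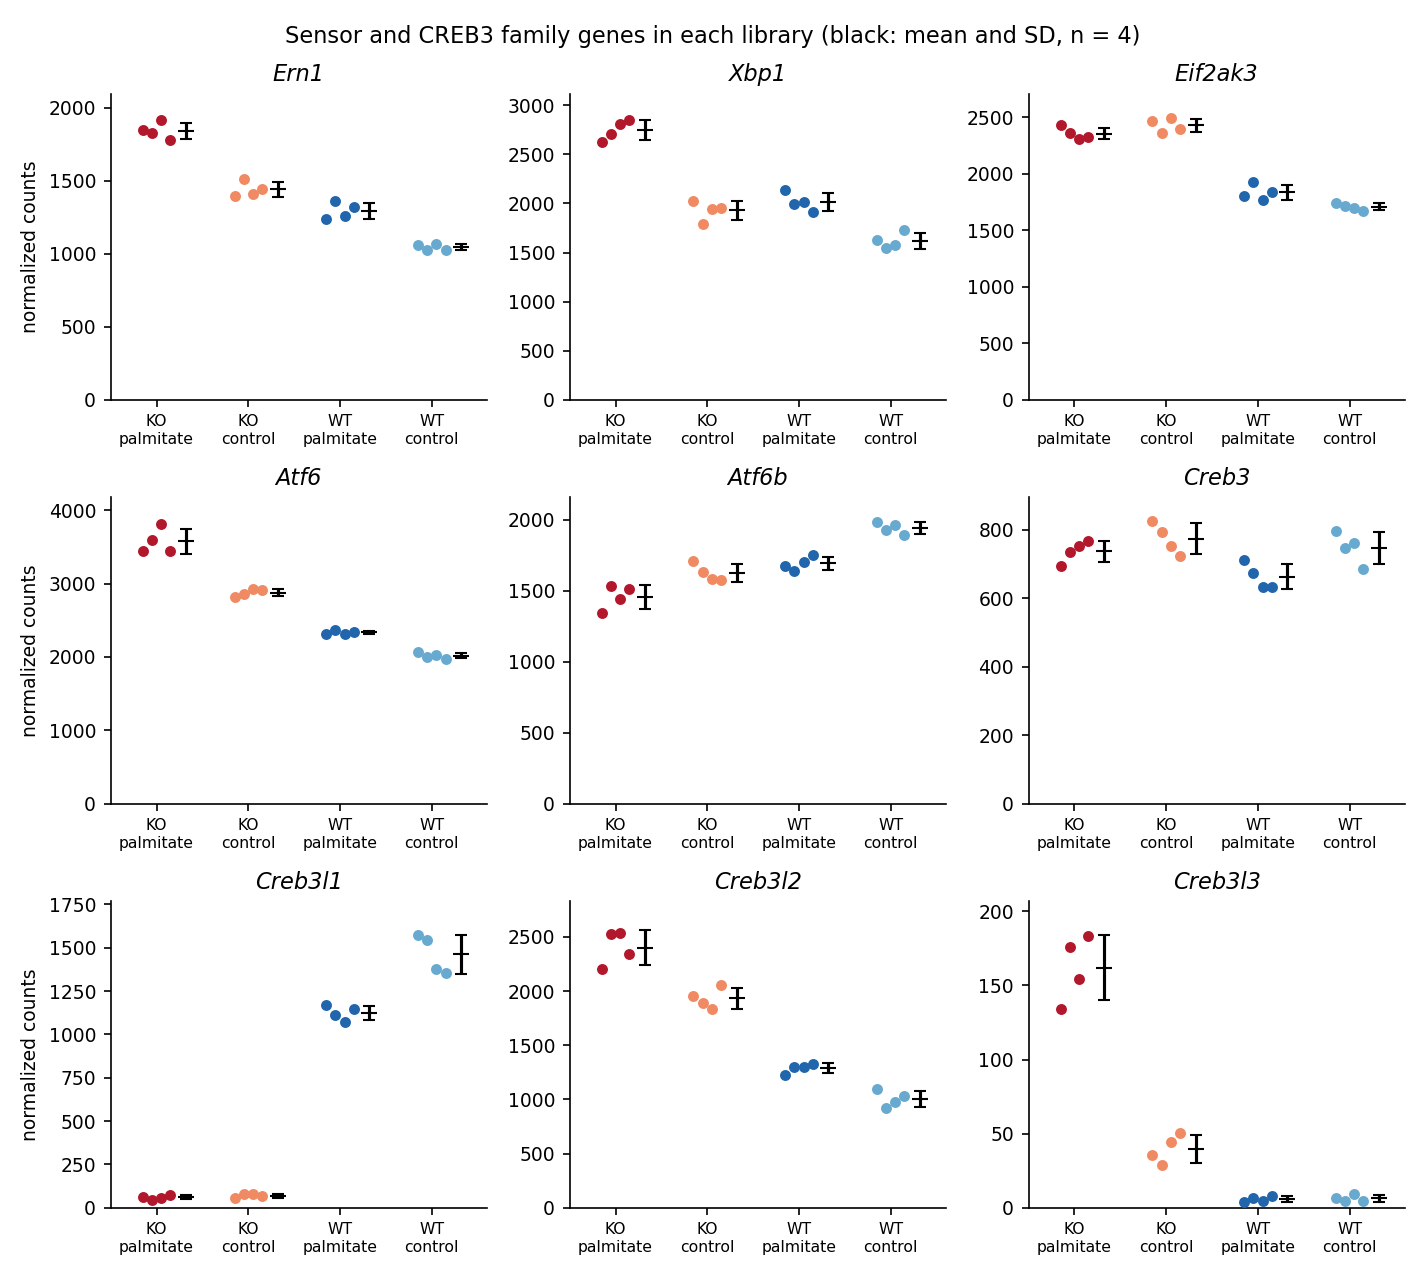
Normalized counts (y axis, linear, starting at 0) of the 9 genes in each of the 16 libraries, by group on the x axis, with the group mean and SD (n = 4) in black. Ern1, Xbp1, Atf6 and Creb3l2 were highest in KO palmitate libraries, Creb3l1 measured 46.7 to 79.0 in KO libraries beside 1072 to 1572 in WT libraries, and Creb3l3 measured 134 to 183 in KO palmitate libraries beside at most 50.3 elsewhere.

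Levels between genes were compared only per length, as normalized counts per kb of exon. In KO palmitate cells, Xbp1 led at 846 ± 31.1 and Atf6b followed at 529 ± 30.8 (SD, n = 4). Then came Eif2ak3 at 391 and Atf6 at 387, whose libraries overlapped, and Creb3l2 at 329.8 and Creb3 at 310.4, which overlapped too, with Ern1 at 225. Creb3l3 at 53.7 and Creb3l1 at 23.3 were lowest. In KO control cells Xbp1 at 594 and Atf6b at 590.1 overlapped at the top, and Creb3l3 at 13.2 was lowest, below Creb3l1 at 26.7. In WT palmitate cells Xbp1 at 621 and Atf6b at 614 overlapped, and Creb3l1 stood at 432. In WT control cells Atf6b led at 704, ahead of Creb3l1 at 562 and Xbp1 at 498, which overlapped. Creb3l1 thus took one of the top 3 places in both WT groups and one of the last 2 in both KO groups, while Creb3l3 was last in WT cells, at 1.91 after palmitate and 2.08 in control.

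**Figure D2:**
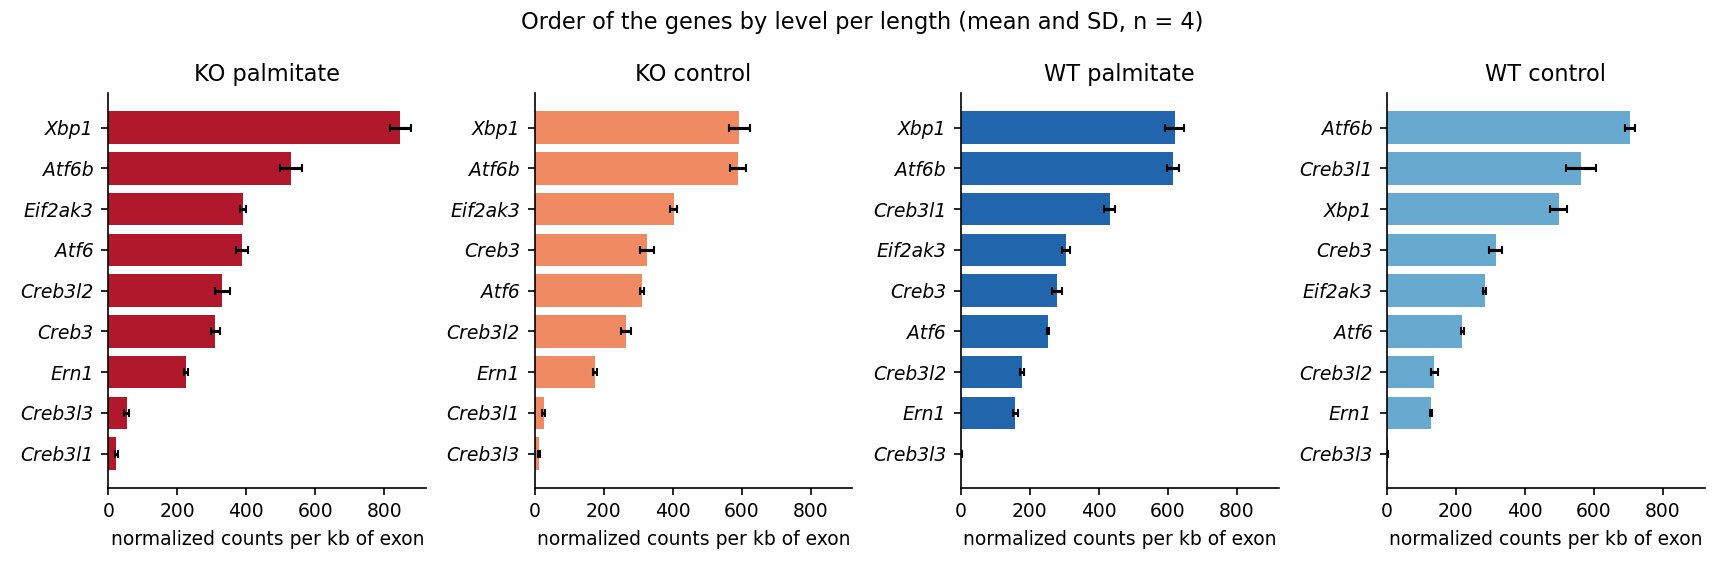
Mean normalized counts per kb of exon (x axis, linear; bars with SD, n = 4 libraries) of the 9 genes, sorted within each of the 4 groups. Xbp1 headed both KO groups and the WT palmitate group, and Creb3l1 stood at 432 and 562 in WT cells, beside 23.3 and 26.7 in KO cells.

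IRE1 is encoded by Ern1 (chr11:106394650-106487852, minus strand, GRCm38). Ern1 measured 1847, 1825, 1915 and 1778 normalized counts in the KO palmitate libraries and 1396, 1509, 1412 and 1443 in the KO control libraries. The WT libraries held 1239, 1362, 1255 and 1317 after palmitate and 1058, 1023, 1066 and 1028 in control. The 4 groups did not overlap, so that Ern1 was highest in KO palmitate cells, then in KO control cells, then in WT palmitate cells. KO cells exceeded WT cells by a log2 fold change of 0.51 ± 0.04 (SE) after palmitate (limma adjusted p = 3.36e-13) and 0.46 ± 0.04 in control (limma adjusted p = 2.77e-12). Palmitate raised Ern1 by 0.35 ± 0.04 in KO cells (limma adjusted p = 9.12e-09) and by 0.31 ± 0.04 in WT cells (limma adjusted p = 1.33e-07). No difference between these responses (KO minus WT, here and below) was detected, at 0.05 with a 95% interval of -0.06 to 0.15 (limma adjusted p = 0.642).

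Xbp1 (chr11:5520659-5525893, plus strand) codes for the transcription factor whose messenger RNA IRE1 cuts. The segment that IRE1 removes lies in exon 4 of transcript Xbp1-201, at chr11:5524279-5524304. It is shown because the deposited values count the whole gene and so cannot tell the cut from the uncut transcript. Its 26 bases are in capitals, read from the GENCODE vM21 sequence of that transcript.
Xbp1 removed segment: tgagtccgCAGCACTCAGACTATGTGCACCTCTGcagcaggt
The segment was located by a pair of the word CNGCAGC set 26 bases apart, so its length was given in advance. Total Xbp1 measured 2629, 2704.5, 2810 and 2851 normalized counts in the KO palmitate libraries and 2021, 1792, 1946 and 1956 in the KO control libraries. It stood in WT cells at 2136, 1993, 2018 and 1918 after palmitate and 1628, 1547, 1572 and 1729 in control. The KO palmitate libraries were above all others, the WT control libraries were below all others, and the KO control and WT palmitate libraries overlapped each other. Xbp1 was higher in KO than in WT cells by 0.45 ± 0.04 after palmitate (limma adjusted p = 6.27e-11) and by 0.25 ± 0.04 in control (limma adjusted p = 2.29e-06). Palmitate raised it by 0.51 ± 0.04 in KO cells (limma adjusted p = 7.27e-11), or 1.43-fold with a 95% interval of 1.35 to 1.51, and by 0.32 ± 0.04 in WT cells (limma adjusted p = 4.75e-07), or 1.25-fold with an interval of 1.18 to 1.32. The KO response was larger by 0.19 ± 0.06 (limma adjusted p = 0.027). That last call did not hold under every setting: the adjusted p was 0.052 with no filter, 0.076 with libraries scaled to the same total, 0.133 with quantile normalization, and 0.0544 to 0.0761 without any 1 of 6 libraries. Those 6 were KO control 2, KO palmitate 3 and 4, WT control 4, and WT palmitate 2 and 4.

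The genes that XBP1 is known to drive build the ER's import, folding and export machinery, and their count was followed over 22 of 23 listed genes. After palmitate, KO cells had 17 of 22 higher and 2 lower, with a median of 0.16, where 18.7% of all genes were higher and 20.4% lower. WT cells had 4 higher and 7 lower, with a median of -0.036, where 17.7% of all genes were higher and 19.9% lower, and this split turned round to 7 higher and 3 lower when libraries were scaled to the same total, and to 7 higher and 5 lower with quantile normalization. The lower count was 4 without any 1 of WT control 1, WT control 3 and WT palmitate 4. The response was larger in KO cells for 13 of 22, against 4.19% of all genes. Sec24d, a cargo adaptor of COPII vesicles, averaged 390.4 ± 38.0 normalized counts in KO palmitate and 237 ± 11.04 in KO control cells, against 854 ± 18.6 in WT palmitate and 1011 ± 66.0 in WT control cells (SD, n = 4). Its difference of responses was 0.96 ± 0.085 (SE; limma adjusted p = 1.83e-08), from a change of 0.715 in KO cells and -0.24 in WT cells. Ostc, a subunit of the oligosaccharyltransferase, differed by 0.35 ± 0.06 (limma adjusted p = 2.66e-04) and Ssr1, a translocon-associated protein, by 0.32 ± 0.04 (limma adjusted p = 2.72e-06). Dnajb9, an ER co-chaperone, rose in both, by 0.35 ± 0.05 in KO cells (limma adjusted p = 6.14e-06) and 0.24 ± 0.05 in WT cells (limma adjusted p = 6.22e-04). Against WT, KO cells had 13 of 22 higher and 4 lower after palmitate, and 8 higher and 9 lower in control, where 38.1% and 37.8% of all genes were higher, and 39.0% and 39.3% lower. At the same total these splits became 10 higher and 7 lower after palmitate, and 7 higher and 14 lower in control. Kdelr3, a retrieval receptor of ER proteins, stood lower at -2.76 ± 0.12 after palmitate (limma adjusted p = 7.45e-17) and -2.95 ± 0.12 in control (limma adjusted p = 1.83e-17).

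Of 8 genes for IRE1 partners and the tRNA ligase that rejoins the cut Xbp1 transcript, 7 passed the filter, and the ligase complex member Fam98b fell by 0.24 ± 0.04 in KO cells (limma adjusted p = 2.72e-05) and by 0.28 ± 0.04 in WT cells (limma adjusted p = 2.08e-06) after palmitate. In all, limma called 2 of the 7 lower and 0 higher in KO cells and 3 lower and 0 higher in WT cells after palmitate, near the 20.4% and 19.9% of all genes that were lower. At the same total the split was 2 lower and 2 higher in KO cells and 2 lower and 1 higher in WT cells. Between genotypes 0 of the 7 responses differed by limma, edgeR or DESeq2, where 9.90% of all genes differed by limma, and 1 had an unadjusted p under 0.05 in each. Of 7 transcripts reported elsewhere as cut by IRE1 during regulated decay, 1 fell after palmitate in KO cells and 0 of 7 in WT cells by limma, edgeR or DESeq2. At an unadjusted p under 0.05, also 0 of 7 fell in WT cells. Of all genes, 20.4% were lower in KO and 19.9% in WT cells, so these counts do not stand above that background. Scara3, 1 of the 7, passed the filter through the WT libraries alone, with 5 reads over the KO palmitate and 6 over the KO control libraries. The gene that fell in KO cells was Pmp22, a myelin and epithelial membrane protein. Pmp22 stood at 709.6 ± 23.4 normalized counts in KO palmitate and 1155 ± 33.1 in KO control cells, against 1318 ± 53.7 in WT palmitate and 1279 ± 57.8 in WT control cells. Its response differed by -0.745 ± 0.06 (SE; limma adjusted p = 1.09e-09). The remaining decay substrates showed values between -0.26 and 0.07 in KO cells, of which Sparc was called higher at 0.07 ± 0.03 (limma adjusted p = 0.0287).

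PERK is encoded by Eif2ak3 (chr6:70844515-70905245, plus strand), whose exons overlap the predicted gene Gm43292 on the other strand by 485 bases, a gene of at most 1.05 normalized counts. Eif2ak3 measured 2428, 2356, 2309.7 and 2327 normalized counts in the KO palmitate libraries and 2462, 2362, 2491 and 2399 in the KO control libraries. The WT values were 1805, 1930.5, 1770.5 and 1834 after palmitate and 1743, 1716, 1699 and 1672 in control. All KO libraries were above all WT libraries, but the KO palmitate and KO control libraries overlapped. The KO excess was 0.36 ± 0.03 after palmitate (limma adjusted p = 2.03e-11) and 0.51 ± 0.03 in control (limma adjusted p = 9.78e-15). Palmitate gave -0.04 ± 0.03 in KO cells (limma adjusted p = 0.277) and raised Eif2ak3 by 0.10 ± 0.03 in WT cells (limma adjusted p = 0.0093, but 0.0618 without WT palmitate library 2). The responses differed by -0.15 ± 0.04 (limma adjusted p = 0.0298). The adjusted p of that difference was 0.0748 with no filter and 0.0516 to 0.0872 without any 1 of 7 libraries, namely KO control 1 and 3, KO palmitate 3, WT control 3 and 4, and WT palmitate 2 and 4.

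Genes downstream of PERK and ATF4 rose with palmitate in both genotypes. Of 14 listed, 13 passed the filter, and 13 were higher in KO cells and 12 in WT cells, with medians of 0.91 and 0.98, where 18.7% and 17.7% of all genes were higher. The KO response was larger for 8 of 13, against 4.19% of all genes, and smaller for 1, Ppp1r15a, against 5.71%. The count of smaller responses was 0 with no filter, by edgeR and by DESeq2, and also without any 1 of KO control 1 and 2, KO palmitate 2, WT control 3 and 4, and WT palmitate 3 and 4. Trib3, a pseudokinase, averaged 946 ± 147 normalized counts in KO palmitate and 94.6 ± 4.29 in KO control cells, against 1451 ± 67.1 in WT palmitate and 624 ± 36.3 in WT control cells (SD, n = 4). It rose by 3.30 ± 0.08 (SE) in KO cells (limma adjusted p = 6.59e-19), and its response differed by 2.08 ± 0.11 (limma adjusted p = 3.97e-11). Chac1, which degrades glutathione, differed by 1.73 ± 0.14 (limma adjusted p = 1.19e-08), and Slc7a11, the cystine carrier, by 1.15 ± 0.095 (limma adjusted p = 5.29e-09). These 3 genes started lower in KO control cells than in WT control cells, by -2.71 for Trib3, -2.70 for Chac1 and -1.33 for Slc7a11. Against WT, KO cells had 9 of the 13 lower after palmitate and 9 in control, 8 of them the same genes, where 39.0% and 39.3% of all genes were lower, and Atf4 stood at -0.725 ± 0.03 after palmitate (limma adjusted p = 8.60e-18). Among 7 genes for other eIF2 kinases, eIF2 and its phosphatase partners, the eIF2 alpha subunit gene Eif2s1 fell after palmitate by 0.27 ± 0.04 in KO cells (limma adjusted p = 1.76e-06) and by 0.38 ± 0.04 in WT cells (limma adjusted p = 6.40e-09). The response of 1 of these 7 differed, near the 9.90% of all genes, namely that of the phosphatase regulator Ppp1r15b, at 0.14 ± 0.04 (limma adjusted p = 0.0278).

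Atf6 (chr1:170704674-170867771, minus strand) codes for the ATF6 alpha precursor. It measured 3451, 3594, 3809 and 3450.2 normalized counts in the KO palmitate libraries and 2816, 2864, 2921 and 2913 in the KO control libraries. Its WT values were 2319, 2368, 2319.97 and 2335 after palmitate and 2070.1, 2004, 2024 and 1978 in control. The groups did not overlap and stood in the same order as for Ern1. The KO excess was 0.61 ± 0.03 after palmitate (limma adjusted p = 7.72e-17) and 0.51 ± 0.03 in control (limma adjusted p = 5.22e-15). Palmitate raised Atf6 by 0.31 ± 0.03 in KO cells (limma adjusted p = 3.69e-09) and 0.21 ± 0.03 in WT cells (limma adjusted p = 3.09e-06). The difference of 0.10 ± 0.04 was not called (limma adjusted p = 0.141, 95% interval 0.01 to 0.19).

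Atf6b (chr17:34647146-34655074, plus strand), which codes for the related precursor ATF6 beta, ran the other way. It measured 1346, 1535, 1443 and 1511 normalized counts in the KO palmitate libraries and 1713, 1634, 1586 and 1574 in the KO control libraries. In WT cells it measured 1674, 1643, 1705 and 1754 after palmitate and 1984, 1929.6, 1960.3 and 1892 in control. The KO palmitate libraries were lowest and the WT control libraries highest, with KO control and WT palmitate libraries overlapping between them. The KO difference was -0.22 ± 0.04 after palmitate (limma adjusted p = 8.42e-06) and -0.26 ± 0.04 in control (limma adjusted p = 6.38e-07). Its palmitate change was -0.16 ± 0.04 in KO cells (limma adjusted p = 0.00133) and -0.20 ± 0.04 in WT cells (limma adjusted p = 1.34e-04). The difference of the responses was 0.04, with an interval of -0.07 to 0.15 (limma adjusted p = 0.723).

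Among the chaperone genes known as ATF6 targets, 14 of 15 passed the filter. After palmitate 14 of 14 were higher in KO cells, with a median of 0.28, where 18.7% of all genes were higher. In WT cells 4 were higher and 1 lower, with a median of 0.038, where 17.7% of all genes were higher and 19.9% lower. The WT count was 7 at the same total, 8 with quantile normalization, and 2 without WT control library 2 or without WT palmitate library 3. The response was larger in KO cells for 9 of 14, against 4.19% of all genes. Hspa5, the chaperone BiP that binds the sensors, averaged 19307 ± 794 normalized counts in KO palmitate and 13168 ± 440.5 in KO control cells, against 18288 ± 338 in WT palmitate and 17204 ± 462 in WT control cells (SD, n = 4). It rose by 0.55 ± 0.03 (SE) in KO cells (limma adjusted p = 2.17e-14) and 0.09 ± 0.03 in WT cells (limma adjusted p = 0.0197), and the responses differed by 0.46 ± 0.04 (limma adjusted p = 2.75e-08). Hspa5 thus began lower in KO than in WT control cells, by -0.39 (limma adjusted p = 1.75e-12). Herpud1, an ER-associated degradation factor, rose in both, by 0.61 ± 0.04 in KO cells (limma adjusted p = 3.20e-12) and 0.74 ± 0.04 in WT cells (limma adjusted p = 9.14e-14). The chaperone cofactors Sdf2l1 and Dnajc3 had larger responses in KO cells, by 0.41 ± 0.10 (limma adjusted p = 0.01) and 0.33 ± 0.07 (limma adjusted p = 0.00414). Against WT, KO cells had 8 of 14 higher and 4 lower after palmitate, a split of 3 and 4 at the same total and 4 and 4 with quantile normalization. In control they had 2 higher and 9 lower. Of all genes, 38.1% were higher and 39.0% lower after palmitate, and 37.8% higher and 39.3% lower in control.

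**Figure D3:**
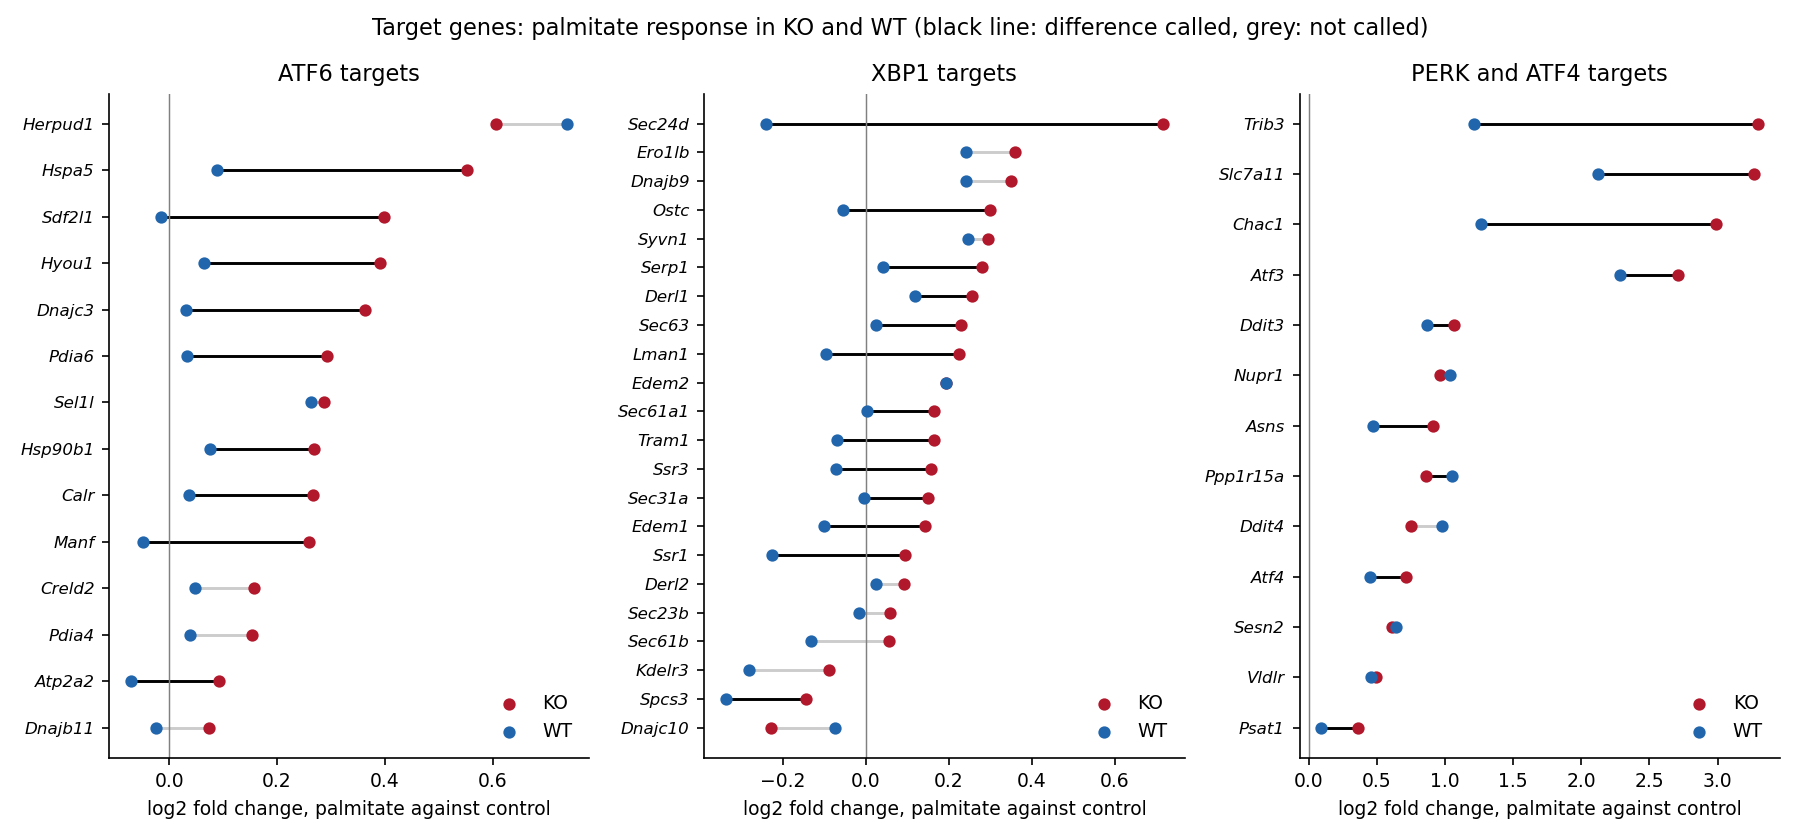
Palmitate response (x axis, limma log2 fold change of palmitate against control) of each tested ATF6, XBP1 and PERK and ATF4 target gene, in KO (red) and WT (blue) cells, joined by a black line where the difference was called and a grey line where it was not. The ATF6 target responses were above 0 in KO cells for 14 of 14 genes, and the joining line was black for 9 of 14 ATF6, 13 of 22 XBP1 and 9 of 13 PERK and ATF4 targets. Of all genes tested, 9.90% had a difference called.

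A list of 14 genes covered the transport of ATF6 and CREB3 precursors to the Golgi, their cleavage and its regulators. Of these, 9 were lower in KO than in WT cells after palmitate (4 higher) and 11 in control (1 higher). Of all genes, 39.0% and 39.3% were lower. The list mixes carriers and proteases with regulators, among them an inhibitor (Wfs1), so the counts do not measure transport or cleavage capacity. The split after palmitate was 10 lower and 2 higher at the same total. Pdia5, a disulphide isomerase known to act on ATF6, stood at -2.04 ± 0.08 after palmitate (limma adjusted p = 3.25e-19) and -2.29 ± 0.08 in control (limma adjusted p = 2.04e-20). Wfs1, which codes for wolframin, a negative regulator of ATF6, stood at -1.64 ± 0.04 after palmitate (limma adjusted p = 1.56e-23) and -1.70 ± 0.04 in control (limma adjusted p = 6.47e-24). The site-1 protease gene Mbtps1 had a response of 0.02 in KO cells (limma adjusted p = 0.539) and 0.004 in WT cells (limma adjusted p = 0.925). It averaged 4917 after palmitate and 4840 in control in KO cells, against 5810 and 5793 in WT cells. The site-2 protease gene Mbtps2 averaged 1458 and 1436 in KO cells, against 1296 and 1395 in WT cells. As deposited, Mbtps2 was called lower after palmitate in WT cells, and higher in KO than in WT cells after palmitate. The responses of 2 of the 14 differed, near the 9.90% of all genes whose responses differed. These were the COPII coat genes Sec23a, by 0.18 ± 0.05 (limma adjusted p = 0.0135), and Sec13, by 0.12 ± 0.04 (limma adjusted p = 0.0463).

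Creb3 (chr4:43562332-43567060, plus strand) codes for Luman, the transcription factor that gave the family its name. Its exons overlap those of Tln1 by 360 bases and those of Gba2 by 133 bases on the other strand, and since the use of strand in counting is not given in the sources used here, its values are uncertain. Creb3 measured 694, 735, 751 and 766 normalized counts in the KO palmitate libraries and 825, 792, 752 and 723 in the KO control libraries. The WT libraries gave 709.9, 674, 634 and 634 after palmitate and 796, 746, 760.1 and 685 in control. The groups overlapped in all 4 comparisons. KO cells were higher after palmitate by 0.15 ± 0.05 (limma adjusted p = 0.0095), but this was 0.05 with an adjusted p of 0.35 at the same total, and in control the value was 0.05 ± 0.05 (limma adjusted p = 0.382). Palmitate gave -0.07 ± 0.05 in KO cells (limma adjusted p = 0.311) and gave -0.17 ± 0.05 in WT cells (limma adjusted p = 0.00969, and 0.0503 without WT control library 1). The difference was 0.10, with an interval of -0.05 to 0.25 (limma adjusted p = 0.434).

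Creb3l1 (chr2:91982328-92024502, minus strand), which codes for OASIS, was far lower in KO than in WT cells. It measured 64.1, 46.7, 57.8 and 74.3 normalized counts in the KO palmitate libraries and 53.8, 79.0, 77.8 and 67.4 in the KO control libraries. WT libraries measured 1167, 1114, 1072 and 1144 after palmitate and 1572, 1546, 1378 and 1356 in control. Every KO library was far below every WT library, and the KO palmitate and KO control libraries overlapped. KO cells held 5.40% of the WT mean after palmitate, a log2 fold change of -4.21 ± 0.12 (limma adjusted p = 3.49e-16), and 4.75% in control, at -4.39 ± 0.12 (limma adjusted p = 1.79e-16). Of all genes tested, 2.36% after palmitate and 2.19% in control had a genotype change at least as large. Palmitate gave -0.19 ± 0.12 in KO cells (limma adjusted p = 0.235, but 0.029 without KO control library 1) and -0.38 ± 0.12 in WT cells (limma adjusted p = 0.0224). The WT call was lost without any 1 of WT control 1 and 2 and WT palmitate 3, with adjusted p of 0.053 to 0.0565. The summed stellate and fibroblast markers were also low in KO cells, as given above. Of the 9, 7 passed the filter, Dcn, Des and Mmp2 through the WT libraries alone, so no count is read from them, and Lrat and Lum did not pass. The collagen genes Col1a1 and Col1a2, known OASIS targets in bone and fibroblasts, stood at -5.47 ± 0.085 and -5.60 ± 0.09 after palmitate (limma adjusted p = 5.26e-16 and 6.13e-16) and at -5.59 ± 0.085 and -5.755 ± 0.09 in control (limma adjusted p = 4.00e-16 and 4.47e-16). Col1a1 is itself one of those markers, and the part of that cell identity in the level of Creb3l1 was not tested.

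Creb3l2 (chr6:37327255-37442146, minus strand) codes for BBF2H7, known in cartilage as an activator of Sec23a. It measured 2207, 2527, 2532 and 2341 normalized counts in the KO palmitate libraries and 1952, 1886, 1832 and 2057 in the KO control libraries. WT libraries stood at 1223, 1298, 1304 and 1327 after palmitate and 1094, 918, 973 and 1033 in control. The 4 groups did not overlap, and all KO libraries were above all WT libraries. KO cells exceeded WT cells by 0.90 ± 0.05 after palmitate (limma adjusted p = 1.17e-13), or 1.86-fold, and by 0.94 ± 0.05 in control (limma adjusted p = 4.32e-14), or 1.92-fold. Palmitate raised it by 0.31 ± 0.05 in KO cells (limma adjusted p = 3.16e-05) and 0.36 ± 0.05 in WT cells (limma adjusted p = 5.83e-06). The responses differed by -0.05, with an interval of -0.20 to 0.10 (limma adjusted p = 0.756). Sec23a had a response of 0.14 ± 0.03 in KO cells (limma adjusted p = 9.26e-04) and -0.03 in WT cells (limma adjusted p = 0.457), and Sox9, a chondrocyte and biliary factor of the same list, stood higher in KO cells by 2.10 ± 0.06 after palmitate (limma adjusted p = 4.27e-18) and 2.44 ± 0.06 in control (limma adjusted p = 2.58e-19). Of the 9 tested partners and targets of the CREB3 family, 3 were higher and 2 lower after palmitate in KO cells, against 2 higher and 3 lower in WT cells. Of all genes, 18.7% were higher and 20.4% lower in KO cells, and 17.7% and 19.9% in WT cells. The lower count was 0 in KO cells at the same total, 1 in KO cells with quantile normalization and 5 in WT cells by edgeR. Crebrf, which codes for a protein known to destabilise Luman, had opposite responses, of -0.12 in KO cells (limma adjusted p = 0.0189) and 0.17 in WT cells (limma adjusted p = 0.00129), and the difference was -0.285 ± 0.06 (limma adjusted p = 0.00114).

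Creb3l3 (chr10:81084324-81098874, minus strand) codes for CREB-H, the hepatocyte member of the family. It measured 134, 176, 155 and 183 normalized counts in the KO palmitate libraries and 35.4, 29.2, 44.3 and 50.3 in the KO control libraries. WT libraries held 4, 6.52, 4.30 and 8.25 after palmitate and 6.83, 4.54, 9.41 and 4.31 in control, from 28 reads in all after palmitate and 26 in control. The KO palmitate libraries were above all others, the KO control libraries were above both WT groups, and the WT groups overlapped near 0. KO cells exceeded WT cells by 4.63 ± 0.25 after palmitate (limma adjusted p = 5.61e-16), with a ratio of means of 28.1, and by 2.51 ± 0.25 in control (limma adjusted p = 3.90e-10), with a ratio of 6.34. The control value was 1.61 with a pseudocount of 10. All WT values lay below the filter value of 10, so the higher level in KO cells follows from the filter. Palmitate raised it in KO cells by 2.02 ± 0.25 (limma adjusted p = 2.37e-07), with a ratio of means of 4.07. In WT cells the value was -0.09 ± 0.25 (limma adjusted p = 0.809), with a 95% interval of -0.61 to 0.42 at this depth. The responses differed by 2.11 ± 0.35 (limma adjusted p = 2.13e-04). Of all genes tested, 0.171% had a palmitate change in KO cells at least as large, and 0.171% a difference at least as large.

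The summed hepatocyte markers were high in KO cells together with Creb3l3. Of the 9, 7 passed the filter, Alb and Apoa1 through the KO libraries alone, and Cps1 and Cyp2e1 did not pass, so no count between genotypes is read from them. In KO cells 2 of 7 were higher after palmitate and 0 lower, against 18.7% and 20.4% of all genes. They were the fibrinogen gene Fgb at 0.34 (limma adjusted p = 1.66e-06) and the transthyretin gene Ttr at 0.645 (limma adjusted p = 2.21e-05). In WT cells 3 of 7 were higher and 0 lower, against 17.7% and 19.9% of all genes, namely Apob at 0.60, Serpina1a at 0.22 and Ttr at 0.45. No difference between the Ttr responses was detected, at 0.19 (limma adjusted p = 0.416). The response of Fgb was larger in KO than in WT cells, by 0.40 (limma adjusted p = 2.46e-04), and those of Apob and Serpina1a smaller, by -0.42 and -0.30 (limma adjusted p = 0.0393 and 0.00114). The part of the hepatocyte markers in the level of Creb3l3 was not tested. Of 13 genes known as CREB-H targets, 6 passed the filter and 7 did not (Apoa4, Apoa5, Cidec, Fgf21, G6pc, Hamp and Pck1). Of the 6, 4 (Apcs, Apoa1, Apoc2 and Crp) reached the filter through the KO libraries alone, so their being higher in KO cells follows from the filter and no count is read from them. Apcs, the serum amyloid P gene, averaged 347 ± 30.7 normalized counts in KO palmitate and 384 ± 11.9 in KO control cells, against 0.20 in WT palmitate cells and 0 in WT control cells. After palmitate, 1 of the 6 rose in KO cells, near the 18.7% of all genes, namely Cpt1a, the carnitine shuttle enzyme, by 0.67 ± 0.03 (limma adjusted p = 1.73e-16). Cpt1a rose by 1.46 ± 0.03 in WT cells (limma adjusted p = 2.20e-24), so that its response was smaller in KO cells, with a difference of -0.80 ± 0.04 (limma adjusted p = 1.85e-13). That difference was opposite in sign to the one of Creb3l3, though both genes rose in KO cells. The related gene Creb3l4 was low throughout, at 4.55 normalized counts in KO palmitate and 4.24 in KO control cells, against 10.8 in WT palmitate and 5.96 in WT control cells, below the filter, so it was not tested.

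**Figure D4:**
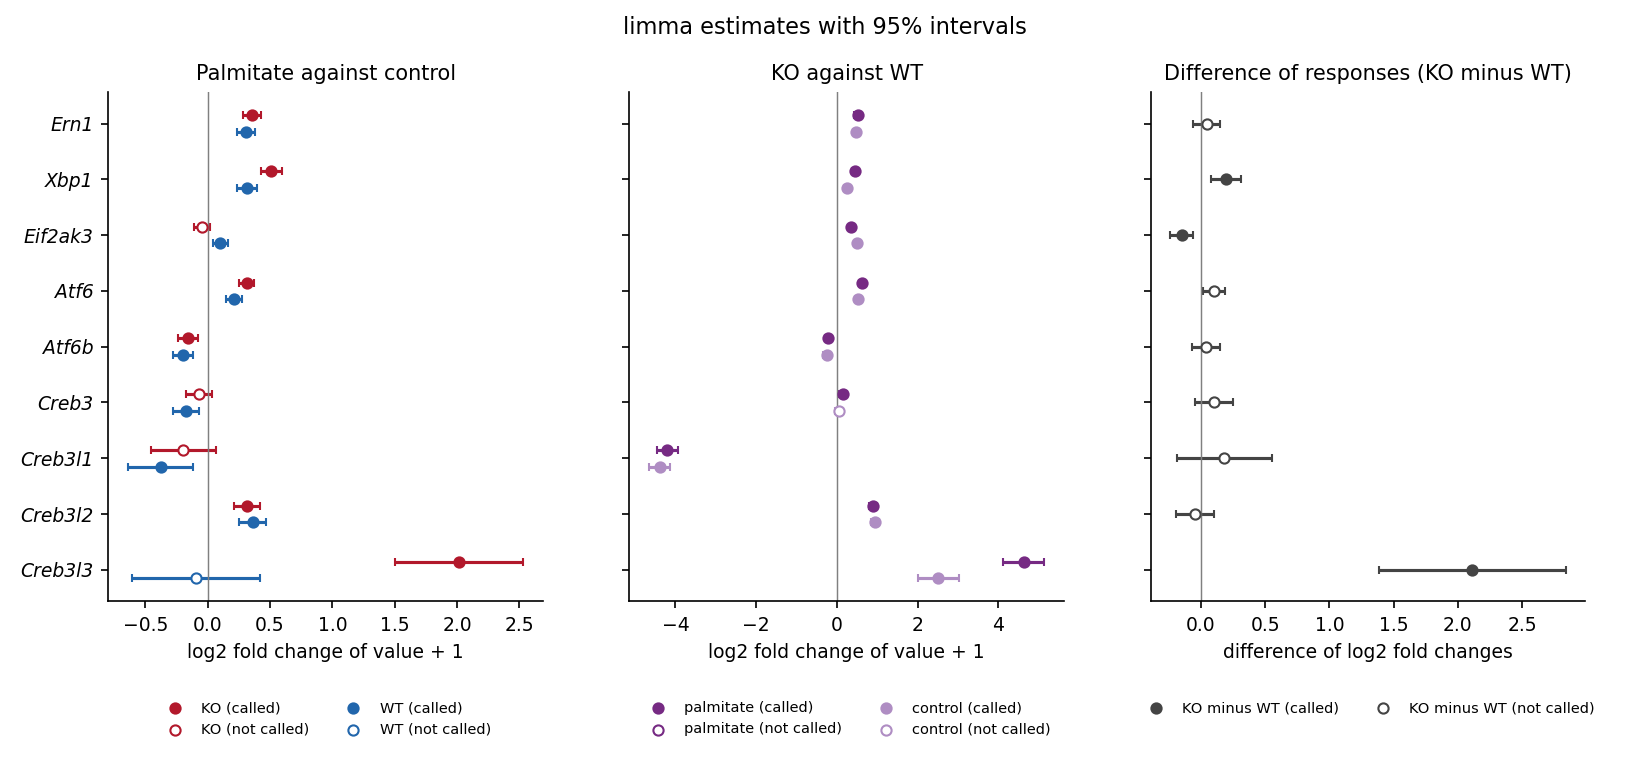
limma estimates with 95% intervals for the 9 genes (rows): palmitate against control in KO and WT cells (left; x axis, log2 fold change), KO against WT cells after palmitate and in control (middle), and the difference of the responses, KO minus WT (right). Filled points were called and open points were not; Creb3l3 stood apart on the right at 2.11, with Xbp1 at 0.19 and Eif2ak3 at -0.15.

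The promoters were read because Ern1, Xbp1 and Creb3l2 were higher in KO cells and higher after palmitate in both genotypes, whereas Creb3l3 responded in KO cells. RefSeq windows of 250 bases before to 50 bases after the start (GRCm38.p6) matched 7 of the 9 genes, with a pair of windows for Creb3l3 and none for Atf6 or Creb3l1. The first 20 bases after the start lay in 0 GENCODE transcripts of Xbp1 and 0 of Creb3l2, and the Xbp1 start lies before the GENCODE gene start given above, so for these genes the window and positions hold for the RefSeq start only. In the sequences below, given 5′ to 3′ on the gene's own strand, capitals mark the CCAAT box, the word CCACG of ER stress elements and the word TGACG of cAMP elements, in either direction.
Ern1 chr11:106487747-106488046 minus strand: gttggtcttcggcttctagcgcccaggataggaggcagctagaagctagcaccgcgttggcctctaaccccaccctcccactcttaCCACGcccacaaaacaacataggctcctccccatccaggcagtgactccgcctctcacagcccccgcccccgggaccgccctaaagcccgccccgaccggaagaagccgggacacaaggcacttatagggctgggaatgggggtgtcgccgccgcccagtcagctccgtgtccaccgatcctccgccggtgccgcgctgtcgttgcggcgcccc
Xbp1 chr11:5520391-5520690 plus strand: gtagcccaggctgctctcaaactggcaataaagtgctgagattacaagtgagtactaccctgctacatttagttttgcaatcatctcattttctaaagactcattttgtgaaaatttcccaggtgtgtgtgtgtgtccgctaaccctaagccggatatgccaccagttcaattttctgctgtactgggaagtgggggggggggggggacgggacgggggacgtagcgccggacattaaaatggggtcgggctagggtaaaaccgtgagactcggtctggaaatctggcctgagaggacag
Creb3l2 chr6:37442099-37442398 minus strand: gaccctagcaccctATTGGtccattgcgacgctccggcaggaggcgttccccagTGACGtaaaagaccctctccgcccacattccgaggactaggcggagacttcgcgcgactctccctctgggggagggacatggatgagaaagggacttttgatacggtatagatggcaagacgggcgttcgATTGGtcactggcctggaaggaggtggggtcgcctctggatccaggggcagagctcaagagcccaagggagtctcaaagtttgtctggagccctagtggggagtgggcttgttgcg
Creb3l3 upstream start chr10:81098823-81099122 minus strand: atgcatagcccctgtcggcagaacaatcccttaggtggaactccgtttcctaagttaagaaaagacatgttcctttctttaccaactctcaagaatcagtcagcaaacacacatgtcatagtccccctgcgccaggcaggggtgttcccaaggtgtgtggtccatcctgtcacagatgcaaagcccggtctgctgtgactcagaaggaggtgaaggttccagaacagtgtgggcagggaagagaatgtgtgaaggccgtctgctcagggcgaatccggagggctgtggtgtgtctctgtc
Creb3l3 downstream start chr10:81092542-81092841 minus strand: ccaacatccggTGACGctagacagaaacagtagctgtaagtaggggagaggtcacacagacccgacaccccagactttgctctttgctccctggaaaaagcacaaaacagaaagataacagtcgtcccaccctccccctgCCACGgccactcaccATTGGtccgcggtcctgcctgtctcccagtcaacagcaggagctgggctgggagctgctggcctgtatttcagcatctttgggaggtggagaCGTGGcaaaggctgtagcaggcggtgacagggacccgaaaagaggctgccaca
No window of the 7 genes held the full ER stress element ERSE, a CCAAT box followed at a fixed distance by CCACG (in 0.119% of 32851 promoters on either strand), its compact form ERSE-II (0.0365%), the unfolded protein response element (TGACGTGG, 0.676%), the full cAMP element (TGACGTCA, 1.79%) or the ATF4 composite site (TGATGNAAT, 0.965%). The short TGACG, found in 20.8% of promoters, lay in the Creb3l2 window at positions -196 to -192 from the start and in the downstream Creb3l3 window at -239 to -235. CCAAT, in 37.4% of promoters, occurred 6 times in the Eif2ak3 window, 2 times in that of Creb3l2 and 1 time each in those of Atf6b and the downstream Creb3l3 start. CCACG, in 32.8% of promoters, occurred 3 times in the Creb3 window, 2 times in the downstream Creb3l3 window and 1 time in that of Ern1. The Xbp1 window and the upstream Creb3l3 window held none of these short words.

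The genes whose levels ran most like each of the 9 were ranked by Pearson's r of log2(normalized count + 1) over the 16 libraries, as a description, since the libraries share genotype and treatment. The highest were Zfand5 for Ern1 (r = 0.987), Mblac2 for Xbp1 (0.971), Lpin2 for Atf6 (0.992), Pgs1 for Atf6b (0.967) and Arhgef3 for Eif2ak3 (0.992). In the CREB3 family they were Tor1b for Creb3 (0.887), Arhgap29 for Creb3l1 (0.998), Pde4dip for Creb3l2 (0.996) and Serp1, which codes for an ER stress-associated membrane protein and is one of the XBP1 targets, for Creb3l3 (0.988). With each genotype's mean subtracted, Scd2 was most like Ern1 (0.976), Aldoc most like Xbp1 (0.982), Sel1l3 most like Atf6 (0.984), Pcmtd2 most like Creb3l2 (0.986) and Apobr most like Creb3l3 (0.947), while no named gene passed 0.873 for Eif2ak3 or 0.870 for Creb3l1. Among the 9 genes themselves, Atf6 and Ern1 had r = 0.978 over the 16 libraries, and Atf6b ran against both, at -0.913 with Atf6 and -0.942 with Ern1.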

How the data were processed

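RNA-seq was deposited for 16 libraries, 4 for each genotype and treatment. The authors deposited 1 table of normalized counts, a linear signal per gene, and the submitters' processing notes name STAR, RSEM, DESeq2 and limma without role or version. The genome build is not given in the sources used here, nor is the use of strand. The labels' protocols mention FFPE material in the extraction text, though the samples are labelled as cultured cells. All deposited values above 0 (100%) were whole reads divided by a library factor, within 0.1 read, and the recovered reads were used for the edgeR and DESeq2 alternatives.

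Values were tested as log2(value + 1), which understates the change of low genes, with limma 3.58.1 (R 4.3.3; trend and robust options, 4 group means over all 16 libraries) for the 15239 genes that reached 10 in 4 or more libraries. Two-sided p-values were adjusted by Benjamini-Hochberg in each of 5 comparisons. The alternatives were pseudocounts of 10 and 0.5, no filter, scaling to the same total, quantile normalization, edgeR 4.0.16 (TMM), DESeq2 1.42.0, only the groups compared, the replicate number as a block, and leaving out each library. The script was tested on simulated data. No 2 libraries of a group agreed within sampling noise (chi-square per degree of freedom of 1.59 to 5.79).

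The members and lists were chosen with earlier results of these data known. Named are the 9 genes, Ptpn1, up to 3 called genes with the largest change per list and comparison, defining markers and the most alike genes. Mbtps1, Mbtps2, Hspa5 in control, Sec23a, Crebrf in each genotype, Ppp1r15a and Creb3l4 were added after their values were seen. Some genes are in more than 1 list (Sec24d, Sec23a, Sox9, Col1a1 and Pdgfrb among them). Coordinates are GRCm38 positions from GENCODE vM21, in which 55154 of the 55421 identifiers were found without regard to version. Levels per kb used the summed exon length in that annotation. 1 listed progenitor marker is not reported here. Promoter sequences came from RefSeq. Intervals cover the spread between these libraries only.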

Additional observations from a re-analysis of the deposited data

Results flagged for a closer look

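No group of 4 libraries had a library far from the others in any of the 9 genes, over 36 groups checked. The results below are those whose palmitate response differed between KO and WT cells in the limma test of the difference itself, given as KO minus WT on the log2 scale. Among the sensors and CREB3 factors these were Creb3l3 at 2.11, Xbp1 at 0.19 and Eif2ak3 at -0.15. Of the XBP1 targets named above, the difference was 0.96 for Sec24d, 0.35 for Ostc and 0.32 for Ssr1. The ATF6 targets Hspa5, Sdf2l1 and Dnajc3 had differences of 0.46, 0.41 and 0.33. The PERK and ATF4 targets Trib3, Chac1 and Slc7a11 had 2.08, 1.73 and 1.15, and the phosphatase regulator Ppp1r15b had 0.14. The COPII genes Sec23a and Sec13 had 0.18 and 0.12. Cpt1a and Sox9 rose less in KO than in WT cells, with differences of -0.80 and -0.34. The IRE1 decay substrate Pmp22 had a difference of -0.745, because it fell in KO cells, at -0.70, and was not called in WT cells. Crebrf, at -0.285, fell in KO cells and rose in WT cells.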

How the results depend on the processing

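Over the 9 genes and 5 comparisons, 36 of 45 results kept their direction and their side of the threshold under all alternatives run. Scaling to the same total turned the KO against WT control value of Creb3 to -0.028, which was not called in either case. The WT palmitate value of Creb3l3 turned to 0.096 without WT control library 3, 0.035 without WT palmitate library 1 and 0.0072 without WT palmitate library 3, within a range of -0.26 to 0.096 over the libraries left out. The number of the 9 genes whose responses differed was 1 with no filter, when 28347 genes were tested, and 1 to 3 when each library was left out in turn. The cause was not tested. On the recovered reads, edgeR called 1596 differences over all genes and DESeq2 1558, beside 1508 by limma. DESeq2 gave no adjusted p for the Creb3l3 difference (log2 fold change 2.10, unadjusted p = 5.17e-06). Target counts under the alternatives were added after seeing the data: larger responses in KO cells numbered 9 to 11 for ATF6, 12 to 14 for XBP1 and 7 to 8 for PERK and ATF4 targets.

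Over all genes tested, deviations of same-numbered libraries from their group means correlated weakly (-0.053 to 0.061), so the numbers were not taken as pairs. After palmitate, however, 3 of the 4 KO libraries were most like the WT library of their own number, against 2 in control. On principal component 2 (3.2% of the variance), palmitate library 1 stood at -10.4 in KO and -9.79 in WT cells. Its partners stood at -19.0 to -22.0 and -15.6 to -16.4. A shared effect of the replicate number was not tested beyond the block. With the replicate block, limma called 1820 differences of responses over all genes, beside 1508 without it, and the WT palmitate call of Creb3l1 was lost (limma adjusted p = 0.0578), while the other calls of the 9 genes were the same. Creb3l3 rests on 28 and 26 reads over the WT palmitate and WT control groups, so a small WT response was not detectable at this depth.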
